A study of Homo sapiens with 6 samples.

Results

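The enzymes that make the nucleotide sugar UDP-GlcNAc (UDP-N-acetylglucosamine) and attach or remove O-GlcNAc were examined after knockdown of PRKCN, the protein kinase D family member now named PRKD3. The 9 genes were taken by symbol from the 21850 genes of the deposited count table: GFPT1, GNPNAT1, PGM3 and UAP1 of the hexosamine pathway, NAGK, GNPDA1 and GNE around it, and the cycling enzymes OGT and OGA. All 9 were listed, none was absent, and OGA was found under its current symbol rather than MGEA5. RNA was sequenced from MM.1S, an established human multiple myeloma cell line, at day 3 of transduction. The shNT group (3 libraries, genotype given as WT) received a lentiviral scramble hairpin, and the shPRKCN group (3 libraries, given as PRKCN knockdown) received a PRKCN hairpin, both from the constitutive pLKO-TRC-GFP backbone. Lentiviral transduction was therefore shared by both groups, and 1 cell line was used. Nothing in the labels says whether libraries of a group came from separate cultures, so p-values measure only the spread between these libraries, which may be technical.

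UDP-GlcNAc is built from fructose 6-phosphate, glutamine, acetyl-CoA and UTP in the hexosamine pathway, whose first and rate-limiting step is catalysed by GFPT1. It is the sugar donor for N-glycans, glycolipid anchors and proteoglycans in the secretory route, which plasma cells and myeloma cells use heavily for antibody export, and for O-GlcNAc on nuclear and cytosolic proteins. A single pair of enzymes handles that last modification: OGT adds the sugar to serine and threonine, and OGA takes it off.

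In shPRKCN cells 3 of the 4 enzymes of the de novo route were lower and OGT was higher. GFPT1 stood at 51.9% and UAP1 at 63.1% of their shNT level, PGM3 at 73.9%, and GNPNAT1 at 104.9% with overlapping groups. OGT stood at 139.3% and OGA at 81.1%. Of the recycling enzymes, GNPDA1 was at 122.1% and NAGK at 86.1%, and GNE, the entry to sialic acid, was at 95.9% with overlapping groups. A gene was called at an adjusted p under 0.05 with a log2 fold change beyond 0.58, the limits used in the study, and log2 fold changes are shPRKCN minus shNT. By this rule 2 of 9 enzymes (22.2%), GFPT1 and UAP1, were called lower, where 10.6% of all 13971 tested genes were. No enzyme was called higher, where 6.15% of all genes were. DESeq2 also called 0 of them higher, and 813 genes over the whole table. At an unadjusted p under 0.05, 2 were higher, where at least 26.5% of all genes were, the share that passed by adjusted p. By adjusted p alone, 5 of 9 were lower (27.8% of all genes) and 2 were higher (26.5% of all genes). The median log2 fold change was −0.22 over the 9 enzymes and 0.0012 over all genes.

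**Figure D1:**
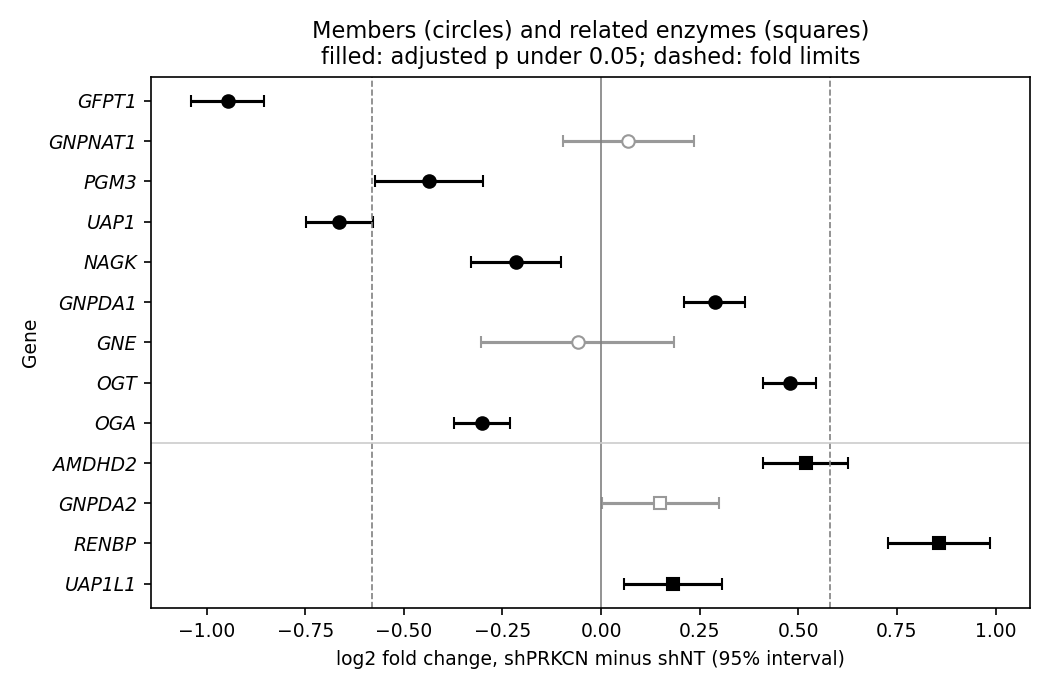
Log2 fold change (shPRKCN minus shNT, x axis) of the 9 enzymes (circles) and 4 tested related enzymes (squares), 1 gene a row, with 95% intervals. Filled symbols have an adjusted p under 0.05 and dashed lines mark the fold limits of 0.58 in either direction: GFPT1, UAP1 and RENBP lie outside them.

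The knockdown itself was read from PRKD3, which fell from 1262 ± 41.7 to 517 ± 23.4 CPM (CPM, counts scaled to library size with TMM factors; SD, n = 3), or 41.0% of shNT. PRKD3 overlaps NDUFAF7, and strand use in counting is not given in the sources used here, so the split of reads between them is uncertain. Library totals lay between 35625564 and 37730003 counts, and TMM factors between 0.992 and 1.01. Enzyme counts lay between 224 and 30614 a library. Libraries of a group differed by more than sampling noise (chi-square per degree of freedom 3.38 to 4.80), so none repeated another. All 8 plasma cell markers were present (5.86 to 612 FPKM, counts scaled to gene length and library total), and their summed level was 1719 to 1785 FPKM in shNT and 1175 to 1201 FPKM in shPRKCN libraries. Of these markers TNFRSF17, XBP1, IRF4 and SLAMF7 were called lower, PRDM1 (−0.54) and MZB1 (−0.23) were lower inside the fold limit, SDC1 was higher (0.18, adjusted p = 2.1e-06) and CD38 did not pass (−0.01, adjusted p = 0.87). Of the B cell markers, 3 of 4 were listed and their sum was 5.69 to 6.25 FPKM in shNT against 13.7 to 14.5 FPKM in shPRKCN libraries, nearly all of it CR2, while PAX5 had at most 2 counts and MS4A1 at most 8. For the T cell markers (3 of 4 listed) the sums were 7.77 to 8.64 against 20.4 to 22.8 FPKM, nearly all CD3E, with at most 1 count of CD3D. Myeloid and stromal sums were at most 0.184 and 0.253 FPKM in any library. The part of these shifts in the enzyme results was not tested. In bulk RNA, fewer cells that express a gene and less RNA per cell cannot be told apart.

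Promoter windows are shown for the 4 enzymes that make UDP-GlcNAc, since they were alone among the 9 in holding GACGTG, the core letters bound by the unfolded protein response factor XBP1. XBP1 is the transcription factor that builds the secretory apparatus of plasma cells, and its spliced form is known from other cell types to raise hexosamine pathway genes. RefSeq windows of 300 bases on GRCh38.p14 (250 before to 50 after a start, both strands searched) held these letters in 7.81% of 35116 windows and in 9.34% of 27305 genes. The sequences below are read on the gene's strand and the capitals mark the match, which reads CACGTC where it lies on the opposite strand. They cover chr2:69387258-69387477 (GFPT1, minus strand), chr14:52791558-52791587 (GNPNAT1, minus), chr6:83193266-83193365 (PGM3, minus) and chr1:162561537-162561566 (UAP1, plus).
GFPT1: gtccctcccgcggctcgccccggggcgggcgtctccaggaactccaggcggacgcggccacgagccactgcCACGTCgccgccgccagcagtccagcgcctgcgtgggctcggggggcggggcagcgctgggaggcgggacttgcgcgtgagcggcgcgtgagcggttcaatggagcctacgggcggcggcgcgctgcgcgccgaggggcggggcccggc
GNPNAT1: ggcgctgcCACGTCtgggccgcggttccca
PGM3: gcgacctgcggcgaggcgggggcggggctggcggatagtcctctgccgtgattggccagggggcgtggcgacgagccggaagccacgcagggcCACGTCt
UAP1: gctcccggcgctGACGTGtctgggcggtcg
The match began 179 bases before the start of GFPT1 and 7 before that of PGM3, and 28 bases after the start of GNPNAT1 and 18 after that of UAP1. PGM3 held it in 1 of its windows and UAP1 in all 3 of its windows, 2 of which share 1 site. NAGK, GNPDA1, OGT, OGA, GNE and the related enzymes held none. GNPNAT1 has the letters and its groups overlapped, while NAGK and OGA were lower and have none. Whether the letters have a part in the enzyme levels was not tested. At the first site of UAP1, the one printed, the match overlaps TGACG, which is in 24.6% of windows and 28.4% of genes. In GFPT1, PGM3 and GNPNAT1, and at the second site of UAP1, the match overlaps CCACG. These letters are the tail of ERSE, another element of the unfolded protein response. They are in 38.1% of windows, 42.1% of genes and 8 of the 9 enzymes, OGT and GNPDA1 among them. Binding was not measured.

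GFPT1 (chr2:69319780-69387227) makes glucosamine 6-phosphate from fructose 6-phosphate and glutamine. It had 3189, 3512 and 3335 counts with the scramble hairpin and 1797, 1774 and 1776 with the PRKCN hairpin. The 3 shPRKCN libraries sat close together and far below every shNT library. The level fell from 91.6 ± 3.42 to 47.5 ± 0.698 CPM (SD, n = 3), a log2 fold change of −0.95 (SE 0.046, 95% interval −1.04 to −0.85, adjusted p = 3.2e-28 by the edgeR quasi-likelihood fit). Its paralog GFPT2 had 1, 2 and 1 counts in shNT and 0, 2 and 0 in shPRKCN libraries, too few to test, so that GFPT1 gave nearly all of the counts for this step.

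GNPNAT1 (chr14:52775193-52791607) acetylates glucosamine 6-phosphate. Its counts were 572, 598 and 517 in shNT and 601, 631 and 587 in shPRKCN libraries, and the groups overlapped. The log2 fold change was 0.07 (SE 0.083, 95% interval −0.10 to 0.23, adjusted p = 0.50), an interval that leaves out a fall as large as that of any of the other 3 enzymes of the route.

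PGM3 (chr6:83148705-83193900) moves the phosphate to form N-acetylglucosamine 1-phosphate. It had 892, 930 and 985 counts in shNT and 726, 656 and 749 in shPRKCN libraries, with no overlap. From 25.6 ± 0.596 to 18.9 ± 1.13 CPM (SD, n = 3), the log2 fold change was −0.44 (SE 0.069, 95% interval −0.57 to −0.30, adjusted p = 1.3e-07), past the test and inside the fold limit. PGM3 overlaps DOP1A (1230 to 1331 counts in shNT, 1260 to 1422 in shPRKCN) and RWDD2A (215 to 271 and 181 to 211 counts), and strand use in counting is not given in the sources used here, so the split of reads between them is uncertain.

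UAP1 (chr1:162561531-162601240) completes UDP-GlcNAc by joining UTP. It had 4187, 4405 and 4248 counts in shNT and 2873, 2682 and 2772 in shPRKCN libraries. Every shPRKCN library lay below every shNT library. UAP1 fell from 117 ± 3.36 to 74.0 ± 2.56 CPM (SD, n = 3), a log2 fold change of −0.66 (SE 0.042, 95% interval −0.75 to −0.58, adjusted p = 2.5e-22). Its lower-expressed relative UAP1L1 went the other way, with 870, 997 and 1033 counts in shNT and 1151, 1112 and 1113 in shPRKCN libraries (log2 fold change 0.18, SE 0.062, adjusted p = 0.010). Without shNT library 1, UAP1L1 no longer passed (0.13, adjusted p = 0.107).

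The recycling and side enzymes divided by direction. NAGK (chr2:71068296-71079808) phosphorylates N-acetylglucosamine recovered from degraded glycans. Its counts were 1226, 1370 and 1373 in shNT and 1202, 1164 and 1142 in shPRKCN libraries, where the highest shPRKCN library came close to the lowest shNT library. Its log2 fold change was −0.22 (SE 0.057, 95% interval −0.33 to −0.10, adjusted p = 9.8e-04). GNPDA1 (chr5:142000671-142013027) runs against GFPT1, turning glucosamine 6-phosphate back into fructose 6-phosphate and ammonia. It had 4320, 4433 and 4685 counts in shNT and 5456, 5772 and 5625 in shPRKCN libraries, all of the latter higher. GNPDA1 rose from 123 ± 2.30 to 149.8 ± 4.80 CPM (SD, n = 3), a log2 fold change of 0.29 (SE 0.039, 95% interval 0.21 to 0.37, adjusted p = 1.6e-09). GNE (chr9:36214441-36276978) turns UDP-GlcNAc into N-acetylmannosamine 6-phosphate for sialic acid. With 253, 227 and 278 counts in shNT and 275, 224 and 248 in shPRKCN libraries, its groups overlapped. The log2 fold change of GNE was −0.06 (SE 0.123), and its 95% interval of −0.31 to 0.19 does not exclude changes as large as that of NAGK.

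Of the related enzymes, RENBP, AMDHD2 and UAP1L1 were higher, as GNPDA1 was. RENBP (chrX:153935269-153944643), which interconverts N-acetylglucosamine and N-acetylmannosamine, had 636, 644 and 681 counts in shNT and 1179, 1237 and 1230 in shPRKCN libraries. Its level rose from 17.9 ± 0.349 to 32.4 ± 0.849 CPM (SD, n = 3), a log2 fold change of 0.86 (SE 0.065, adjusted p = 9.4e-19). AMDHD2 (chr16:2520371-2531417), which removes the acetyl group from N-acetylglucosamine 6-phosphate and so reverses GNPNAT1, had 1119, 1259 and 1280 counts in shNT and 1815, 1811 and 1753 in shPRKCN libraries. Its log2 fold change was 0.52 (SE 0.054, 95% interval 0.41 to 0.63, adjusted p = 5.1e-13), and it overlaps CEMP1. GNPDA2, the paralog of GNPDA1, had 807, 719 and 777 counts in shNT and 935, 741 and 952 in shPRKCN libraries, which overlap (log2 fold change 0.15, SE 0.074, adjusted p = 0.083). It passed without shNT library 1 (0.21, adjusted p = 0.030) and without shPRKCN library 2 (0.25, adjusted p = 0.0039). Of these 4 tested relatives 1 was called higher (6.15% of all genes were) and 0 lower (10.6% of all genes), and the median was 0.35.

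GNPDA1 and AMDHD2 were the enzymes of both groups whose promoter windows held the palindromic E box CACGTG (7.26% of all windows, 8.77% of genes). Their last 100 bases before the start are given for that reason, with the match in capitals (chr5:142013028-142013127, minus strand, and chr16:2520271-2520370, plus strand).
GNPDA1: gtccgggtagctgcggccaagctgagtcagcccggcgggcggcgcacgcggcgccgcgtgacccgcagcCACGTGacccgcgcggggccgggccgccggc
AMDHD2: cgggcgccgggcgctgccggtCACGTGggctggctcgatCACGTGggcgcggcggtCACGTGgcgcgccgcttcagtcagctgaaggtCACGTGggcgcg
GNPDA1 holds it once, beginning 31 bases before the start, and AMDHD2 4 times, at 79, 61, 44 and 12 bases before it. Of the other letters searched, CGCATGCGC (bound by NRF1, 1.92% of windows and 2.34% of genes) was in NAGK and OGT. GAAANNGAA (interferon response, 8.11% and 9.86%) was in OGA and GNE, and TGACTCA (AP-1, 4.95% and 6.05%) in GNPDA1. TGACGTCA (1.85% of windows), TCACGTGA (0.98%), GGGNNTTTC (4.78%) and GGAANNGAA (7.79%) were in none of the 9. The short forms GCGTG (36.5% of windows, 40.6% of genes), CCAAT (34.6% and 39.7%) and TGACG (24.6% and 28.4%) were in 7, 4 and 3 of them. CCAAT followed by CCACG after 9 bases (0.0769% of windows) was in none.

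The cycling enzymes moved apart. OGT (chrX:71533104-71575892) had 20765, 21707 and 20533 counts in shNT and 30614, 28984 and 30607 in shPRKCN libraries. The lowest shPRKCN library lay well above the highest shNT library. OGT rose from 576 ± 23.6 to 802 ± 20.5 CPM (SD, n = 3), a log2 fold change of 0.48 (SE 0.034, 95% interval 0.41 to 0.55, adjusted p = 2.8e-20), below the fold limit over its whole interval. OGA (chr10:101784450-101818444) had 10498, 10719 and 10467 counts in shNT and 8660, 8538 and 9224 in shPRKCN libraries, again with no overlap and in the other direction. OGA fell from 289 ± 9.04 to 235 ± 7.07 CPM (SD, n = 3), a log2 fold change of −0.30 (SE 0.035, 95% interval −0.37 to −0.23, adjusted p = 2.5e-11). Within each library the ratio of OGT to OGA counts, which needs no scaling between libraries, was 1.98, 2.03 and 1.96 in shNT and 3.54, 3.40 and 3.32 in shPRKCN libraries. The mean ratio was 1.99 ± 0.0329 and 3.42 ± 0.110 (SD, n = 3), or 1.72 times as high in shPRKCN cells. Neither protein nor the modification was measured. In all, 7 of the 9 enzymes had no overlap between groups, where 58.8% of all tested genes had none.

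**Figure D2:**
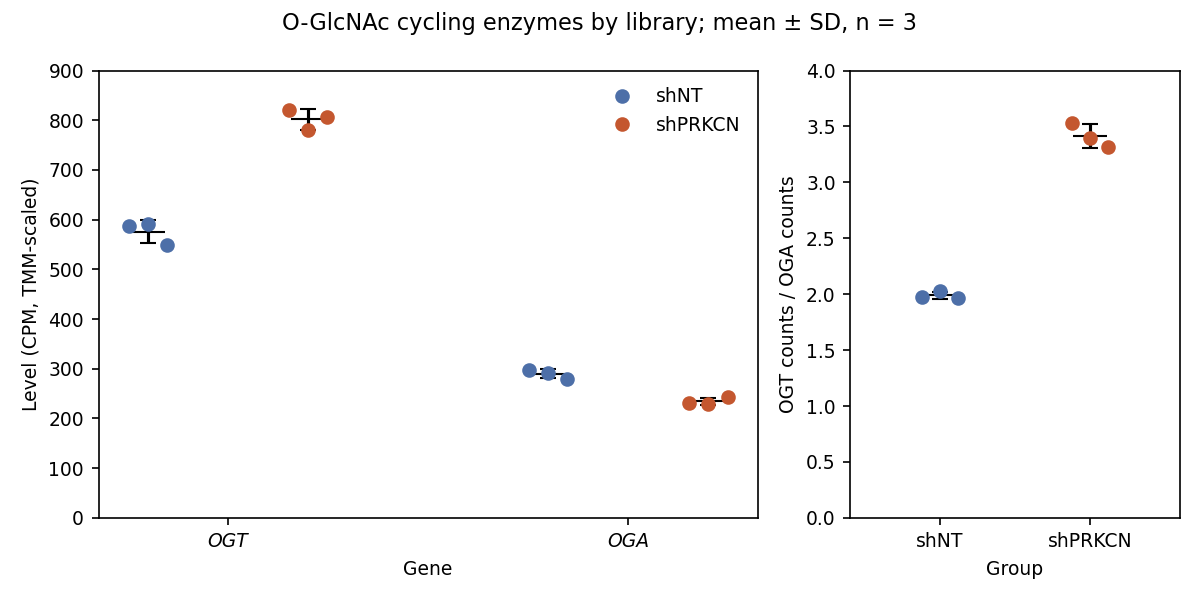
Left, OGT and OGA in each library (TMM-scaled CPM, shNT in blue, shPRKCN in orange, mean and SD of 3 libraries); right, OGT counts divided by OGA counts in each library. OGT goes up and OGA down, and the ratio goes from about 1.99 to about 3.42.

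Per length, OGT was the most abundant of the 9 in both groups, at 65.6 ± 2.72 FPKM in shNT and 92.7 ± 3.27 FPKM in shPRKCN cells (SD, n = 3). In shNT cells it was followed by OGA (46.2 ± 1.44 FPKM), GNPDA1 (45.4 ± 0.807 FPKM) and UAP1 (29.1 ± 0.857 FPKM). Lower levels were those of GFPT1 (10.3 ± 0.402 FPKM), NAGK (9.54 ± 0.366 FPKM), PGM3 (4.04 ± 0.0928 FPKM), GNPNAT1 (3.58 ± 0.326 FPKM) and GNE (1.26 ± 0.118 FPKM). OGA and GNPDA1 were the neighbours in that order whose libraries overlapped. In shPRKCN cells no neighbours overlapped, and 3 pairs had changed places: GNPDA1 (56.2 ± 1.23 FPKM) stood above OGA (38.0 ± 1.46 FPKM), NAGK (8.32 ± 0.284 FPKM) above GFPT1 (5.42 ± 0.0834 FPKM), and GNPNAT1 (3.80 ± 0.141 FPKM) above PGM3 (3.03 ± 0.211 FPKM). UAP1 stood at 18.6 ± 0.774 FPKM and GNE at 1.23 ± 0.135 FPKM in shPRKCN cells.

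Transporters of glucose and glutamine were lower. Of 15 genes of substrate supply, 8 were lower by adjusted p (27.8% of all genes were), 3 higher (26.5% of all genes) and 4 did not pass the adjusted p. The glucose transporter SLC2A1 (−0.55), the hexokinase HK2 (−0.93, SE 0.037, adjusted p = 1.2e-32) and the isomerase GPI (−0.56; −0.59, past the fold limit, without shPRKCN library 2), which makes fructose 6-phosphate, were lower on the log2 scale. So were the amino acid transporters SLC1A5 (−0.52) and SLC38A2 (−0.47), which carry glutamine. GLUL, which makes glutamine (0.42), CAD, which starts pyrimidine synthesis (0.27), and ACSS2, which makes acetyl-CoA from acetate (0.67, SE 0.074, adjusted p = 4.2e-12), were higher. ACSS2 was the 1 gene called higher (6.15% of all genes were), and HK2 and HK1 (−0.59) were the 2 called lower (10.6% of all genes). HK1 was not called without shNT library 1 (−0.57), shPRKCN library 1 (−0.56) or shPRKCN library 3 (−0.57), nor with limma on log2(FPKM + 1) (−0.47) or log2(FPKM + 0.1) (−0.56). The median of −0.23 is the value of NME2, which has 10 to 23 counts a library; it was −0.11 without shNT library 2 and −0.47 without shNT library 3.

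On the sialic acid branch below GNE, 6 of 15 genes were lower and 4 higher by adjusted p (27.8% and 26.5% of all genes) and 5 did not pass, with a median of −0.08. Of the 15, 3 were called lower (10.6% of all genes were) and 1 higher (6.15% of all genes). CMAS, which activates sialic acid as its CMP form (−0.82), and the sialyltransferases ST3GAL6 (−0.61, SE 0.040, adjusted p = 8.2e-22) and ST3GAL4 (−1.19, with 104 to 110 shNT counts and 42 to 54 shPRKCN counts) were called lower. With limma on log2(FPKM + 1) neither sialyltransferase was called (−0.57 for ST3GAL6, −0.47 for ST3GAL4), and ST3GAL4 fell under the FPKM minimum of the other limma fit. NANP, which takes the phosphate off sialic acid 9-phosphate (−0.56), was called lower without shNT library 1 (−0.63), shPRKCN library 1 (−0.63) or shPRKCN library 2 (−0.59). The sialidase NEU1 was called higher at 0.58 (SE 0.046, adjusted p = 8.8e-18), on the limit, and was below it without shNT library 1 (0.56), shNT library 2 (0.57) or shPRKCN library 1 (0.56), and with limma on log2(FPKM + 1) (0.575). The median was −0.0445 without shNT library 1, −0.021 without shNT library 3 and −0.0499 without shPRKCN library 3.

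Among the genes for the use of UDP-GlcNAc, which include subunits and the transporter SLC35A3 beside enzymes, none of those for N-glycans passed the fold limit. Of 12 genes, 6 were lower and 3 higher by adjusted p (27.8% and 26.5% of all genes) and 3 did not pass. By edgeR and by DESeq2 0 were called in either direction, where edgeR called 10.6% of all genes lower and 6.15% higher. The median was −0.08. At an unadjusted p under 0.05, 6 were lower and 3 higher, where at least 27.8% and 26.5% of all genes were, the shares that passed by adjusted p. MGAT4B (0.43) and GNPTAB (0.41), which starts the mannose 6-phosphate tag of lysosomal enzymes, were higher on the log2 scale. DPAGT1, the first step of the lipid-linked precursor, was lower at −0.19. MGAT4A (−0.57, 89 to 191 counts) was called lower without shNT library 2 (−0.64), shPRKCN library 1 (−0.59) or shPRKCN library 3 (−0.70). Of 17 tested genes for other uses (anchors, proteoglycans, O-glycans, with PIGY not listed and HAS2 at 2 counts or fewer), 7 were higher and 4 lower by adjusted p (26.5% and 27.8% of all genes) and 6 did not pass. Of the 17, 1 was called higher (6.15% of all genes were) and 1 lower (10.6% of all genes). GCNT1, which branches mucin-type O-glycans, was called higher (0.78, SE 0.090, adjusted p = 1.3e-11), but not with limma on log2(FPKM + 1) (0.53). PIGA, the catalytic subunit that puts the first sugar on glycosylphosphatidylinositol anchors, was called lower (−0.96, SE 0.097, adjusted p = 1.8e-13). EXTL2 (−0.57) was called lower as well without shNT library 2 (−0.65) or shPRKCN library 2 (−0.63). The median of 0.15 was 0.058 without shNT library 1 and 0.041 without shPRKCN library 3.

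Of 11 lysosomal enzymes that free sugars from glycans, 7 were higher by adjusted p (26.5% of all genes were), 2 lower (27.8% of all genes) and 2 did not pass, with a median of 0.25. Of the 11, 1 was called higher (6.15% of all genes were) and 0 lower (10.6% of all genes). HGSNAT, which acetylates the glucosamine ends of heparan sulfate, was called higher (0.73, SE 0.053, adjusted p = 2.1e-19), and FUCA1 (0.47), MANBA (0.35) and NAGLU (0.34) passed the test on the log2 scale. CTBS, a chitobiase, fell by 0.56 on the log2 scale, and was called lower without shNT library 1 (−0.61). Among 9 partner proteins and regulators of OGT, 5 were higher and 2 lower by adjusted p (26.5% and 27.8% of all genes) and 2 did not pass, with a median of 0.10. Of these 9, 1 was called higher (6.15% of all genes were) and 0 lower (10.6% of all genes). TET2, a DNA hydroxylase that binds OGT, was called higher (0.61, SE 0.060, adjusted p = 8.2e-14), but not without shNT library 3 (0.56) or shPRKCN library 1 (0.56), nor with limma on log2(FPKM + 1) (0.43). HCFC1, which OGT cleaves, had a log2 fold change of 0.10.

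Of 14 factors of the unfolded protein response, 9 were lower by adjusted p (27.8% of all genes were), 3 higher (26.5% of all genes) and 2 did not pass, with a median of −0.24. Of the 14, 2 were called lower (10.6% of all genes were) and 0 higher (6.15% of all genes). XBP1 (chromosome 22), whose core letters the 4 de novo enzymes hold, had 32191, 32879 and 34907 counts in shNT and 13803, 14329 and 14043 in shPRKCN libraries. It fell from 913 ± 19.1 to 375 ± 9.06 CPM (SD, n = 3), a log2 fold change of −1.28 (SE 0.033, adjusted p = 1.9e-43). The counts do not separate spliced from unspliced XBP1. ERN1, the kinase and nuclease that splices XBP1 (−0.55), and DNAJB9 (−0.40) were lower, while the chaperones HSPA5 (0.16) and PDIA4 (0.20) were higher on the log2 scale. SEC24D (−0.61) was called lower beside XBP1, but not without shNT library 2 (−0.56) or shPRKCN library 3 (−0.57), nor with limma on log2(FPKM + 1) (−0.54). IRF4, the transcription factor on which myeloma cells depend, had a log2 fold change of −1.85 (SE 0.035, adjusted p = 5.7e-52). The part of XBP1 and IRF4 in the enzyme levels was not tested.

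The genes whose pattern over the 6 libraries was most like that of GFPT1, by the root mean square difference of centred log2 CPM among 8177 genes, were TMEM107 (0.0229), DPYSL2 (0.0236) and POC1B (0.0251). For OGT they were DICER1 (0.0172), PEAK1 (0.0223) and FGD4 (0.0223). As many as 184 genes lay within 0.1 of GFPT1 and 677 within 0.1 of OGT.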

How the data were processed

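MM.1S RNA (total RNA, Trizol, Illumina) was sequenced in 3 shNT and 3 shPRKCN libraries, grouped by the treatment label. The authors deposited raw counts of reads per gene, not normalized, and FPKM values. The deposited FPKM follow from the counts, the library totals and 1 length a gene (largest relative difference 8.45e-07 over 19668 genes), so both hold 1 measurement. The submitters' processing notes name FastQC, HISAT2, StringTie and GRCh38.p14; versions, annotation and strand setting are not given in the sources used here, and the study compared groups with DESeq2. At the calling limits used here, the study reported more genes higher and more genes lower than edgeR or DESeq2 called here. Depth was 35625564 to 37730003 counts a library.

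TMM scaling preceded the quasi-likelihood test of edgeR 4.0.16 in R 4.3.3, run on the 13971 of 21850 genes kept by filterByExpr, with Benjamini-Hochberg adjustment over all of them; all 6 libraries entered 1 fit with no covariate. Alternatives were DESeq2 1.42.0, RLE and upper-quartile factors, no filter, a minimum of 10 counts per library throughout, a replicate block, omission of single libraries, no fold limit, and limma 3.58.1 on log2(FPKM + 1) and, where 3 libraries reached an FPKM of 1, on log2(FPKM + 0.1). On simulated counts for this comparison (13971 genes), edgeR recovered 99.5% of 200 planted changes and called 3 unchanged genes. Every planted change was well beyond the fold limit and larger than that of UAP1, and none was put in a gene of low count. The simulated spread was that fitted by edgeR itself. Recovery of changes near or inside the fold limit was not examined.

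The members and lists were chosen with earlier results of these data known, and the letters searched in RefSeq promoter windows (Python 3.11.15) after the values were seen. Named genes are the 9 enzymes, 5 relatives, PRKD3, IRF4, XBP1, in each other list the called gene with the smallest adjusted p in each direction, and the 3 genes most like GFPT1 and OGT (mean count at least 500); other list and marker genes were named after their values were seen.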

Additional observations from a re-analysis of the deposited data

How the results depend on the processing

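GFPT1 and UAP1 were called lower, and the other 7 enzymes were not called, in each of 14 alternatives to the fit. Over these, the log2 fold change lay between −0.97 and −0.82 for GFPT1, −0.69 and −0.62 for UAP1, −0.46 and −0.32 for PGM3, −0.25 and −0.18 for NAGK, 0.26 and 0.31 for GNPDA1, 0.44 and 0.50 for OGT and −0.33 and −0.28 for OGA, and the side of the adjusted p was the same. The directions of GNPNAT1 and GNE, which did not pass the test, turned: with single libraries left out, GNPNAT1 ran from −0.0052 (without shNT library 3, adjusted p = 0.968) to 0.11 and GNE from −0.14 to 0.0064 (without shPRKCN library 2, adjusted p = 0.975). Without a fold limit 3700 genes were higher and 3877 lower, and 2 and 5 of the 9 enzymes. With limma on log2(FPKM + 1), 315 genes were called higher and 648 lower, and list medians were −0.095 for substrate supply, −0.037 for the sialic acid branch, 0.074 for other users of UDP-GlcNAc and −0.20 for the unfolded protein response; on log2(FPKM + 0.1) the calls were 505 and 881 and the medians −0.26, −0.058 and, for the unfolded protein response, −0.22. A pseudocount shrinks the change of low genes. At 10 or more counts in every library the median of other users was 0.125. With single libraries left out, medians ran from 0.041 to 0.18 for other users, 0.34 to 0.38 for the relatives, −0.088 to −0.021 for the sialic acid branch, −0.47 to −0.11 for substrate supply and −0.24 to −0.21 for the unfolded protein response.

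Same-numbered libraries did not deviate together (correlations −0.117, −0.0563 and −0.0645 over 10813 genes). Between differently numbered libraries of the 2 groups the correlations ran from −0.0743 to 0.137. Whether libraries were prepared in pairs cannot be read from these values. With the replicate block 854 genes were called higher and 1463 lower, and 0 and 2 of the 9 enzymes; the medians were −0.19 for substrate supply and 0.12 for other users of UDP-GlcNAc, and no call of an enzyme changed.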
